A study of Mus musculus with 12 samples.

Results

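The comparison described here is that of whole liver between mice lacking Cdk1 in hepatocytes (Cdk1 Liv-/-) and wild type (WT) mice at P14, 14 days after birth. Libraries were chosen by their label: 3 of Cdk1 Liv-/- whole liver and 3 of WT whole liver, which are 6 of the 12 libraries of the study. The remaining 6 are of isolated hepatocytes, 3 for each genotype, and served only to show where whole liver differed. Cdk1 Liv-/- mice carry floxed Cdk1 alleles and Albumin-Cre, so that deletion is driven by the albumin promoter in the hepatocyte lineage, whose early precursors also give rise to bile duct cells, and Cdk1 was not measured here by cell type. WT mice are labelled as wild type only, and whether they carried a floxed allele or Cre is not given in the sources used here. Mice of both genotypes had a standard diet and, according to the methods of the study, were male. A library of whole liver holds RNA of hepatocytes together with that of Kupffer cells, endothelium, stellate cells, bile ducts and blood cells, and in such bulk RNA a change in the number of cells of a type and a change in RNA per cell cannot be told apart.

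CDK1 is the kinase that, bound to cyclin B or cyclin A, brings cells into mitosis. In the young liver hepatocytes still divide to let the organ grow, and without CDK1 they can copy DNA and enlarge but do not complete mitosis. The hepatocyte is also the secretory and metabolic cell of the liver: it makes albumin and the acute phase proteins of plasma, detoxifies ammonia and foreign compounds, and under injury signals through cytokines to neighbouring cells, which may deposit matrix.

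RNA levels are given as FPKM, fragments scaled by transcript length in kilobases and by the mapped total of the library, so levels of different genes are compared per length. From the steps between the lowest FPKM, 1 FPKM on 1 kb of transcript was estimated to stand for 41.7 to 43.4 reads in the WT libraries and 47.6 to 48.2 reads in the Cdk1 Liv-/- libraries, so a gene near 0.1 FPKM rests on few reads and small differences there were not detectable. Log2 values of libraries of the same genotype correlated across genes at 0.989 to 0.992 in WT and at 0.979 to 0.987 in Cdk1 Liv-/-, against 0.955 to 0.970 between genotypes. One library stood apart from the statement on sex: Cdk1 Liv-/- replicate 3 had 158 FPKM of Xist, the RNA of the inactive X chromosome, and 0 FPKM for the sum of 4 genes on the Y chromosome (Kdm5d, Uty, Eif2s3y and Ddx3y). The other 5 whole liver libraries had at most 0.05 FPKM of Xist and 48.8 to 62.1 FPKM of the Y-linked genes. The number of called genes is therefore also given without this library, and for most of the lists in which it differed. The methods of the study speak of biological replicates in general, but the labels do not tie the libraries of a group to separate mice, and p-values measure the spread between these libraries, which may be partly technical.

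Cdk1 (chr10:69335146-69352938, minus strand, mm10) was lower in Cdk1 Liv-/- whole liver but remained well detected. Its level was 25.3, 22.7 and 21.5 FPKM in the WT libraries and 11.7, 12.1 and 14.2 FPKM in the Cdk1 Liv-/- libraries. The groups did not overlap, and the log2 fold change was -0.85 ± 0.10 (SE, 3 against 3 libraries, limma, adjusted p = 0.0035). In isolated hepatocytes the log2 fold change of Cdk1 was -1.40 (limma, adjusted p = 0.015), and the difference between both was not past the threshold (0.55, limma, adjusted p = 0.22). FPKM sums all exons of a gene, so the floxed exon was not measured on its own.

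Here and below, a fold change is the difference of the mean log2(FPKM + 0.5) of Cdk1 Liv-/- minus WT, a scale that understates the change of genes near or below 0.5 FPKM. "Rose" and "fell" are used for genes with an adjusted p of at most 0.1 in limma, with the Benjamini-Hochberg adjustment over all genes tested, and a gene was called when its log2 fold change was also at least 1 in size. Of 17386 genes tested, 798 were called higher (4.59%) and 174 lower (1.00%). At the adjusted p alone 6610 genes were higher (38.0%) and 1310 lower (7.53%), and these shares are the background for the counts of risen and fallen members below. For 9060 genes (52.1%) the libraries of both genotypes did not overlap, and this held for 963 of the 972 called genes. Without Cdk1 Liv-/- replicate 3, 1011 genes were called, among them 875 of the 972 in the same direction.

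**Figure D1:**
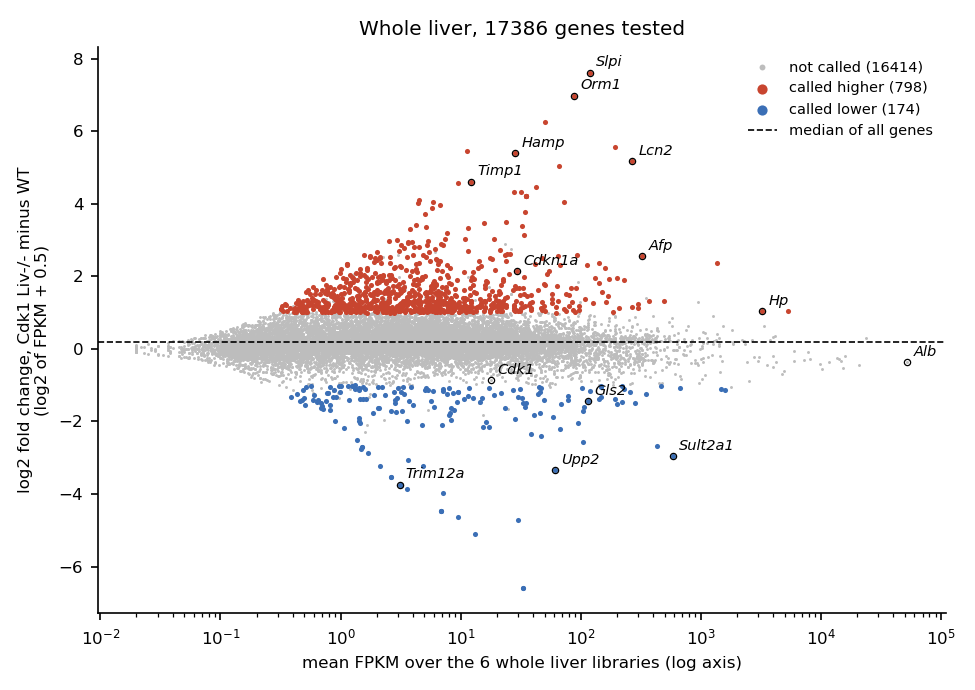
Log2 fold change of each of 17386 genes in whole liver (vertical) against its mean FPKM over the 6 libraries (horizontal, log axis), with genes called higher in red, called lower in blue and the median of all genes as a dashed line. The 798 genes called higher reach 7.62 for Slpi, while Cdk1 lies at -0.85 and Alb, the most abundant of the genes named, at -0.37.

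The balance of higher and lower genes depends on scale. The median log2 fold change of all genes was 0.18. The 10 most abundant genes of a library took 29.7% to 30.9% of all FPKM in WT and 24.5% to 26.4% in Cdk1 Liv-/-, and Alb, the albumin gene, alone took 8.17% to 8.82% against 6.42% to 7.03%. The level of Alb was 58998, 56843 and 61172 FPKM in WT and 47348, 43328 and 46153 FPKM in Cdk1 Liv-/-, a log2 fold change of -0.37 (limma, adjusted p = 0.24). The groups did not overlap, and this value passed with a variance not tied to level (adjusted p = 0.012), among genes of at least 1 FPKM (0.029) and without Cdk1 Liv-/- replicate 2 (0.077). Dividing by median-ratio size factors, which were 0.910 to 0.951 in WT and 1.07 to 1.12 in Cdk1 Liv-/- libraries, moved the median by -0.18 to about 0 and gave 523 genes called higher and 256 lower, so that 67.1% of calls were higher in place of 82.1%. Of the 972 called genes, 697 remained called in the same direction. The median of each list below should be read against 0.18.

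Genes of mitosis rose in whole liver. Ccnb1, cyclin B1, the mitotic partner of CDK1, was at 10.7, 8.51 and 8.75 FPKM in WT and at 25.9, 18.9 and 30.8 FPKM in Cdk1 Liv-/- (log2 fold change 1.37 ± 0.19, limma, adjusted p = 0.0057). Psrc1, which binds spindle microtubules, was at 1.82, 1.82 and 1.34 FPKM in WT and at 19.95, 23.23 and 20.65 FPKM in Cdk1 Liv-/-, a log2 fold change of 3.34 ± 0.12 (limma, adjusted p = 0.00014). All 3 Cdk1 Liv-/- libraries lay above all WT libraries for both genes. Psrc1 is also on the list of p53 targets described below, so its rise counts in both lists. Ckap2, a spindle protein, rose by 1.66 and Aurka, a mitotic kinase, by 1.01, and the smaller log2 fold changes of Plk1 (0.98), Anln (0.75) and Racgap1 (0.65), which act in mitosis and cytokinesis, also passed.

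Of 67 genes of G2/M and cytokinesis tested, 59 rose, none fell and 8 did not pass, with a median of 0.63. Of these, 11 were called higher, but 6 without Cdk1 Liv-/- replicate 3 and 4 after scaling by size factors, under which 42 rose. The levels of S phase genes changed less: of 46 tested, 23 rose and 3 fell, none was called, and after scaling 6 rose and 9 fell. Pcna, the clamp of DNA polymerase, was at 52.95, 51.42 and 49.22 FPKM in WT and at 46.3, 52.8 and 44.2 FPKM in Cdk1 Liv-/-, overlapping (-0.10, limma, adjusted p = 0.35). It was lower after scaling (-0.34, limma, adjusted p = 0.019) and without Cdk1 Liv-/- replicate 2 (-0.18, adjusted p = 0.068). Ccna2, cyclin A2, rose by 0.44 (limma, adjusted p = 0.014), which did not pass after scaling (0.21, adjusted p = 0.16) or in a fit of all 12 libraries (adjusted p = 0.18). Cdk2, the kinase of S phase, had a log2 fold change of 0.15 (limma, adjusted p = 0.21) and of -0.08 after scaling.

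Targets of p53, the transcription factor that halts the cycle and can start apoptosis after DNA damage, rose for the most part. Cdkn1a, which encodes the CDK inhibitor p21, was at 7, 8.72 and 17.95 FPKM in WT and at 38.4, 50.6 and 54.8 FPKM in Cdk1 Liv-/- (2.14 ± 0.35, limma, adjusted p = 0.0087). Ccng1, cyclin G1, was at 7.17, 8.23 and 6.66 FPKM against 25.1, 24.9 and 24.0 FPKM (1.69 ± 0.08, limma, adjusted p = 0.00029). Neither gene overlapped between the genotypes, and WT replicate 3 was the highest of the WT libraries for Cdkn1a. Phlda3, an inhibitor of AKT signalling, rose by 2.87, Gdf15, a secreted stress hormone, by 2.49 and Lif, a cytokine of the IL-6 family, by 2.34.

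Among regulators of apoptosis, Bbc3, a p53 target that encodes PUMA, was at 1.99, 1.84 and 1.99 FPKM in WT and at 6.77, 6.94 and 4.95 FPKM in Cdk1 Liv-/- (1.45 ± 0.14, limma, adjusted p = 0.0020). Bcl2l11, which encodes BIM and is not on the list of p53 targets, was at 2.27, 2.66 and 3.29 FPKM against 2.71, 5.41 and 2.87 FPKM and overlapped (0.32, limma, adjusted p = 0.39). Mdm2, the ligase that degrades p53, rose by 0.69. Of 40 p53 targets tested, 19 were called higher, none lower and 30 rose, with a median of 0.93 (20 called without Cdk1 Liv-/- replicate 3, 16 after scaling). Genes of DNA damage signalling and repair moved less, with 31 of 53 higher, 1 lower, none called and a median of 0.29, and after scaling 8 were higher and 4 lower with a median of 0.10. Cdkn2b, which encodes the CDK inhibitor p15, was at most 0.11 FPKM in WT and 0.68 to 0.83 FPKM in Cdk1 Liv-/- (1.12 ± 0.09, limma, adjusted p = 0.0011).

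Large rises were seen in secreted proteins of the acute phase, the plasma proteins that hepatocytes release during inflammation under IL-6 and IL-1. Orm1 (chr4:63344560-63348163), which encodes an alpha-1-acid glycoprotein, was at 0.90, 0.68 and 0.87 FPKM in WT and at 135, 259 and 130 FPKM in Cdk1 Liv-/-, a log2 fold change of 6.98 ± 0.28 (limma, adjusted p = 0.00017). Lcn2, the iron-sequestering lipocalin 2, was at 14.5, 11.7 and 14.4 FPKM against 383, 662 and 516 FPKM (5.18 ± 0.21, limma, adjusted p = 0.00017). Replicate 2 was the highest of the Cdk1 Liv-/- libraries for both, and no library of one genotype came near those of the other. Orm2 rose by 6.26 beside Orm1, and since these neighbouring genes are near copies, their shares of the reads are uncertain.

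Saa1 and Saa2, neighbouring genes of serum amyloid A that share most of their sequence, rose by 4.06 and 4.32. Hamp (chr7:30942368-30944032), which encodes hepcidin, the hormone that limits iron export, was at 0.45, 0.59 and 1.49 FPKM in WT and at 81.0, 36.8 and 50.2 FPKM in Cdk1 Liv-/- (5.40 ± 0.39, limma, adjusted p = 0.00084). Hp, haptoglobin, was abundant in both groups, at 2186, 2124 and 2077 FPKM in WT and 4222, 4503 and 4422 FPKM in Cdk1 Liv-/- (1.04 ± 0.08, limma, adjusted p = 0.0012). Of 38 acute phase genes tested, 15 were called higher and none lower, against 4.59% and 1.00% of all genes, both with all libraries and without Cdk1 Liv-/- replicate 3, and 13 after scaling. At the adjusted p, 19 rose, 6 fell and 13 did not pass, and the median was 0.63.

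Other secreted or surface proteins reached the same size. Slpi (chr2:164354070-164389095), a secreted inhibitor of leukocyte proteases, had the largest change of all named genes, from 0.54, 0.75 and 0.56 FPKM in WT to 137, 366 and 205 FPKM in Cdk1 Liv-/- (7.62 ± 0.35, limma, adjusted p = 0.00023). It belongs to the WAP family of antiproteases, of which 5 of 10 tested genes were called higher and none lower, Wfdc21 by 3.03 and Wfdc2 by 1.25 among them. Ly6d, a surface protein of the Ly6 family, was at 3.12, 2.86 and 3.89 FPKM against 86.3, 171 and 127 FPKM (5.04 ± 0.26, limma, adjusted p = 0.00032). Ubd, a ubiquitin-like modifier induced by TNF and interferon-gamma, rose by 4.45 and Ifi27l2b, of the Ifi27 family, by 4.34.

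In the complement system, which tags microbes for removal, a pair of duplicated genes rose. C1s2 (chr6:124624625-124636085) was at 0, 0.05 and 0.03 FPKM in WT and at 24.2, 22.8 and 21.3 FPKM in Cdk1 Liv-/- (5.46 ± 0.08, limma, adjusted p = 1.9e-05), and C1rb (chr6:124570294-124581171) at 0.03, 0.08 and 0.11 FPKM against 9.82, 7.98 and 8.72 FPKM (4.02 ± 0.11, limma, adjusted p = 8.2e-05). Both have a related gene in the same region, and how reads were shared with it is uncertain. Gm16567, annotated as an antisense RNA at chr6:124530911-124542310, was listed at 0 in all 3 WT libraries and at 5.13, 14.4 and 7.32 FPKM in Cdk1 Liv-/-. Whether fragments were counted by strand is not given in the sources used here, so its reads and those of an overlapping gene cannot be told apart. Across the complement list 4 of 36 genes were called higher and 1 lower (2 higher after scaling, 5 without Cdk1 Liv-/- replicate 3). C3, the central component, rose by 0.64 and C9, of the membrane attack complex, by 0.89.

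The promoters of acute phase genes are known targets of STAT3, which binds the palindrome TTCNNNGAA, and 4 windows of 250 bases before the RefSeq start of genes called higher are printed to show where that motif lies. They are RefSeq sequences of build GRCm38.p6 (mm10), written 5′ to 3′ on the strand of the gene, with the motif in capitals. Each of these genes has 1 window in the table. RefSeq starts can differ from those of the gene models given elsewhere in the text: the Socs3 window and the motif of C1rb lie inside the gene as GENCODE M21 places it (chr11:117966079-117970047 for Socs3). In Hamp (chr7:30944030-30944279, minus strand) the motif spans bases 97 to 89 before the start, in Socs3 (chr11:117969367-117969616, minus strand) bases 154 to 146, in C1rb (chr6:124570180-124570429, plus strand) bases 119 to 111 and in Steap4 (chr5:7960222-7960471, plus strand) bases 116 to 108.
Hamp: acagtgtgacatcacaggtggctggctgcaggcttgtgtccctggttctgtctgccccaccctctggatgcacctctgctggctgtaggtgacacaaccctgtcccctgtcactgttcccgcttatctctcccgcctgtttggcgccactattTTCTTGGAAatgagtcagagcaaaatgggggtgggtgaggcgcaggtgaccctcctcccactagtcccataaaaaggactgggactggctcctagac
Socs3: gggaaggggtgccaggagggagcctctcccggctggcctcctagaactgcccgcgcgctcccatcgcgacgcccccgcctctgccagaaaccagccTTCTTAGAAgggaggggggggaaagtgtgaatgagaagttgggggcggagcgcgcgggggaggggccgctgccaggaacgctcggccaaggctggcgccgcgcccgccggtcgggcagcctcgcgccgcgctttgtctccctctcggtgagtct
C1rb: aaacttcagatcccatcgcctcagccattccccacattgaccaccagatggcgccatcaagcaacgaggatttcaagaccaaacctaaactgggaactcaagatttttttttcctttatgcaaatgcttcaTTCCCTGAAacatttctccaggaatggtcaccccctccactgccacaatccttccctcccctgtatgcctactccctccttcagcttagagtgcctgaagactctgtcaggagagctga
Steap4: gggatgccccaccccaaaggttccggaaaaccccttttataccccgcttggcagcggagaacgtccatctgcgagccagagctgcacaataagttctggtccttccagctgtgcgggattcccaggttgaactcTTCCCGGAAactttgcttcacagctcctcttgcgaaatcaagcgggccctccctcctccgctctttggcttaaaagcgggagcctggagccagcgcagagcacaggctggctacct

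The motif TTCNNNGAA, which reads the same on both strands, is in 7.02% of all 32851 RefSeq windows of this length. Of the acute phase genes tested, 28 have a window and 7 of these hold the motif (25.0%), and of those called higher 11 have a window and 3 hold it (27.3%). Among all genes called higher the share was 45 of 533 genes with a window (8.44%), beside 7.44% of the genes tested. Of the IL-6 family genes tested 1 of 21 with a window holds it (4.76%), and of the complement genes 4 of 25 (16.0%). A match describes the sequence and is no measurement of binding. Steap4, a metalloreductase, rose by 1.48 and Hpx, the heme carrier hemopexin, by 1.05.

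Genes of IL-6 family signalling moved in both directions, and Il6 itself was close to undetected. Socs3, the feedback inhibitor induced by STAT3, was at 2.39, 2.13 and 2.47 FPKM in WT and at 9.83, 11.1 and 7.59 FPKM in Cdk1 Liv-/- (1.81 ± 0.14, limma, adjusted p = 0.0012). Osmr, the oncostatin M receptor, rose by 1.51 and Il6st, the shared receptor gp130, by 0.86. Il6ra, the receptor that binds IL-6, fell by 0.81 (limma, adjusted p = 0.033) and Lifr, the LIF receptor, by 0.75 (limma, adjusted p = 0.035). Il6 was at 0.25, 0.04 and 0.16 FPKM in WT and at 0.18, 0.86 and 0.22 FPKM in Cdk1 Liv-/-, with only replicate 2 above the WT libraries (0.44, limma, adjusted p = 0.29). Of 25 genes of the family tested, 14 rose, 5 fell and 6 did not pass, and 7 were called higher and none lower (6 higher without Cdk1 Liv-/- replicate 3). After scaling 7 rose and 6 fell, with 5 called higher and 1 lower.

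**Figure D2:**
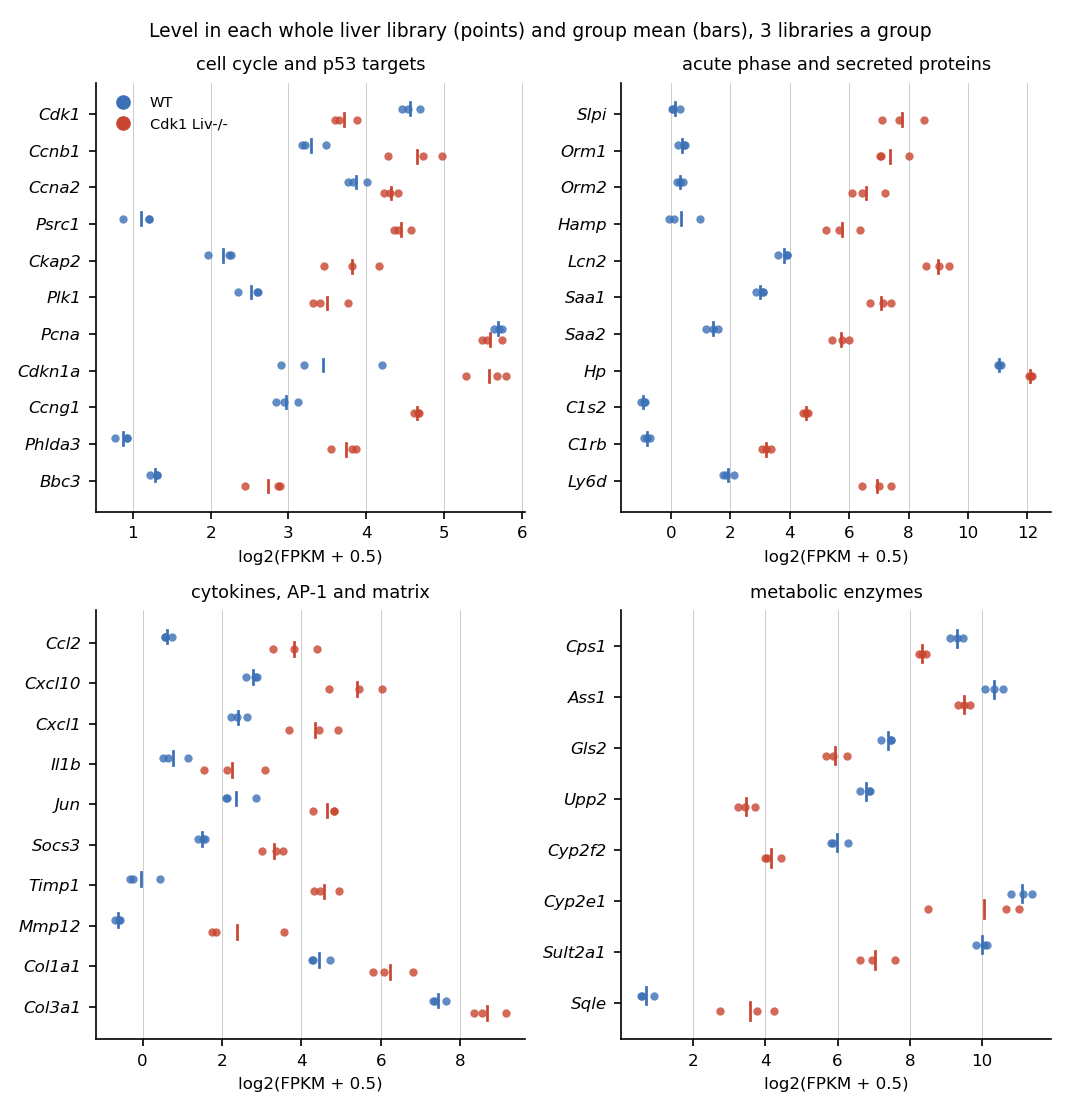
Level of named genes as log2(FPKM + 0.5) in each of the 3 WT (blue) and 3 Cdk1 Liv-/- (red) whole liver libraries, with short bars at the group means, for cell cycle and p53 target genes, acute phase and secreted proteins, cytokines, AP-1 and matrix genes, and metabolic enzymes. Points of both genotypes mix for Pcna (-0.10) and Cyp2e1 and are apart for the other genes, whose log2 fold changes run from -3.33 for Upp2 to 7.62 for Slpi.

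Several chemokines and transcription factors that answer inflammatory signals rose as well. Ccl2, which draws monocytes, was at 1.18, 0.98 and 0.97 FPKM in WT and at 20.4, 13.5 and 9.19 FPKM in Cdk1 Liv-/- (3.20 ± 0.28, limma, adjusted p = 0.0015). Cxcl10, which draws T cells, was at 6.64, 6.84 and 5.59 FPKM against 65.2, 43.6 and 25.5 FPKM (2.63 ± 0.33, limma, adjusted p = 0.0043). Groups did not overlap, with replicate 1 the highest of the Cdk1 Liv-/- libraries for both. Cxcl1, a neutrophil chemokine, rose by 1.94, and Il1rn, the antagonist of the IL-1 receptor, by 1.63.

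Cxcl12, a chemokine made by stromal and endothelial cells, moved the other way, from 177, 194 and 160 FPKM to 138, 103 and 128 FPKM (-0.53 ± 0.13, limma, adjusted p = 0.028). Of 45 cytokines and chemokines tested, 25 rose, 2 fell and 18 did not pass (19 rose and 4 fell after scaling), and 18 were called higher and none lower, also without Cdk1 Liv-/- replicate 3, and the median was 0.65. Of 34 targets and regulators of NF-kappaB, 13 were called higher and none lower with a median of 0.79 (15 higher without Cdk1 Liv-/- replicate 3), among them Ier3, an early response gene (2.75), Icam1, a leukocyte adhesion molecule (1.36), Relb, a subunit of NF-kappaB (1.33), and Tnfaip3, its feedback inhibitor (1.24). Nfkbia, another inhibitor, rose by 0.56.

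Immediate early genes, which are switched on within minutes of a stimulus, included Jun, at 3.90, 3.80 and 6.70 FPKM in WT and at 27.61, 27.61 and 19.02 FPKM in Cdk1 Liv-/- (2.27 ± 0.25, limma, adjusted p = 0.0031). Fos, its partner in AP-1, was at 0.73, 0.58 and 1.32 FPKM against 6.90, 9.03 and 2.68 FPKM (2.18 ± 0.44, limma, adjusted p = 0.016). Replicate 3 was the lowest of the Cdk1 Liv-/- libraries and replicate 3 the highest of the WT libraries for both. Atf3 rose by 2.58 and Junb by 1.75, and 16 of 34 genes of this list were called higher and none lower (17 without Cdk1 Liv-/- replicate 3). Interferon-inducible genes were high in Cdk1 Liv-/- replicate 1: Irf7, a master regulator of the response, was at 16.1, 16.7 and 14.4 FPKM in WT and at 35.3, 9.78 and 15.7 FPKM in Cdk1 Liv-/-, and Isg15 was at 13.3, 13.1 and 11.9 FPKM against 27.2, 9.23 and 11.4 FPKM. The list's median deviation from WT was 1.06, -0.35 and -0.06 in replicates 1 to 3, and 36 of its 39 genes did not pass.

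Many genes of the extracellular matrix were higher in whole liver. Col1a1, a chain of type I collagen, was at 18.9, 19.1 and 26.0 FPKM in WT and at 66.9, 112 and 55.2 FPKM in Cdk1 Liv-/- (1.80 ± 0.28, limma, adjusted p = 0.0078). Timp1, the inhibitor of matrix metalloproteinases, was at 0.35, 0.30 and 0.85 FPKM against 19.5, 30.1 and 21.6 FPKM (4.62 ± 0.26, limma, adjusted p = 0.00042). Replicate 2 was the highest of the Cdk1 Liv-/- libraries for both, and the groups were apart. Col1a2 rose by 1.32, Col3a1 by 1.24 and Col5a3, a minor fibrillar chain, by 1.39.

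Of 26 collagen genes, 17 rose, 3 fell and 6 did not pass (11 rose and 4 fell after scaling). Of these, 11 were called higher and none lower with a median of 0.57, and the called number was 7 after scaling or without WT replicate 2 and 12 without Cdk1 Liv-/- replicate 3. Of 60 matrix glycoproteins and remodelling enzymes, 17 were called higher and none lower, and 45 rose with a median of 0.68 (21 called without Cdk1 Liv-/- replicate 3). Mmp12, the macrophage elastase, was at 0.12, 0.17 and 0.16 FPKM in WT and at 2.88, 11.2 and 3.08 FPKM in Cdk1 Liv-/- (3.00 ± 0.49, limma, adjusted p = 0.0086), and Lox, which crosslinks collagen, rose by 0.93.

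Among growth factors that act on stellate cells, Pdgfa was at 2.90, 3.08 and 3.08 FPKM in WT and at 9.88, 10.6 and 12.4 FPKM in Cdk1 Liv-/- (1.70 ± 0.10, limma, adjusted p = 0.00042). Its receptor Pdgfra rose by 1.00 and Pdgfrb by 0.79. Tgfb2 was at 0.39, 0.48 and 0.43 FPKM against 1.12, 1.01 and 1.16 FPKM (0.77 ± 0.08, limma, adjusted p = 0.0027), whereas Tgfb1, another ligand of the family, was at 7.57, 8.51 and 10.8 FPKM against 9.03, 14.9 and 10.1 FPKM and overlapped (0.31, limma, adjusted p = 0.30). Tgfbr2, the type II receptor, rose by 1.03. Of 34 ligands and receptors of these families, 8 were called higher and none lower, 5 without WT replicate 1 and 3 after scaling.

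**Figure D3:**
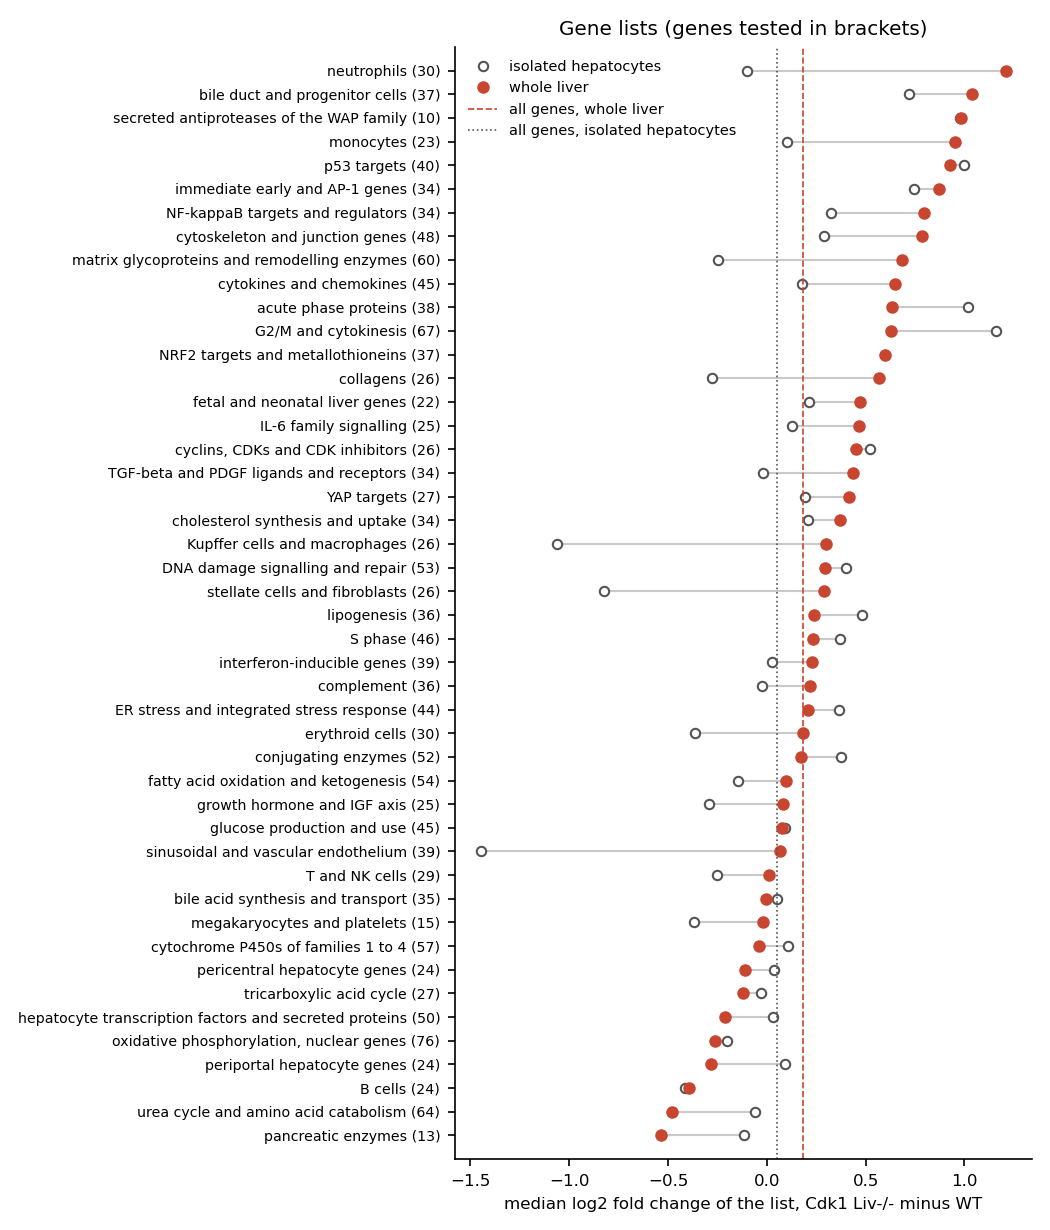
Median log2 fold change of each of 46 gene lists in whole liver (filled) and in isolated hepatocytes (open), with the medians of all genes as dashed (whole liver) and dotted (isolated hepatocytes) lines and the number of genes tested in brackets. In whole liver the medians run from 1.21 for neutrophil genes to -0.54 for pancreatic enzymes, and the widest gap between both kinds of sample is that of endothelial genes.

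Markers of the cells other than hepatocytes were described by list, since whole liver holds all of them. Neutrophil genes had the highest median of all lists (1.21), with 17 of 30 called higher and none lower. That count depended on single libraries: it was 10 without WT replicate 1 or 2, 9 without Cdk1 Liv-/- replicate 2 and 11 without replicate 3. Per library, the median deviation of the list from WT was 0.51, 1.78 and 1.16 in Cdk1 Liv-/- replicates 1 to 3. S100a9, a protein abundant in neutrophils, was at 30.03, 19.28 and 30.93 FPKM in WT and at 40.3, 146 and 114 FPKM in Cdk1 Liv-/- (1.72 ± 0.50, limma, adjusted p = 0.044). S100a8 was at 23.3, 14.3 and 20.5 FPKM against 27.7, 103 and 75.3 FPKM (1.63 ± 0.50, limma, adjusted p = 0.051). Replicate 1 was close to WT for both, and each missed the threshold without either of the other Cdk1 Liv-/- libraries (adjusted p up to 0.13 for S100a9 and 0.14 for S100a8, the latter also without any one WT library and the former without WT replicate 1 or 2). Lcn2, Wfdc21 and Hp are on this list too, and hepatocytes make all 3. In isolated hepatocytes 7 genes of the list were called higher and none lower, with a list median of -0.10.

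Monocyte genes were called higher in 11 of 23 cases and lower in none, with a median of 0.95 (7 called without Cdk1 Liv-/- replicate 2, 12 without replicate 3). Ccr2, the receptor for CCL2, was at 0.77, 0.57 and 0.62 FPKM in WT and at 4.72, 6.47 and 4.05 FPKM in Cdk1 Liv-/- (2.26 ± 0.17, limma, adjusted p = 0.0011). Ly6c2, a surface protein of inflammatory monocytes, was at 1.74, 1.86 and 1.54 FPKM against 4.75, 5.37 and 4.87 FPKM (1.31 ± 0.09, limma, adjusted p = 0.00074). Both were higher in 3 of 3 Cdk1 Liv-/- libraries.

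Of the markers of resident macrophages few were called. Clec4f, a receptor particular to Kupffer cells in rodents, was at 88.1, 94.9 and 100 FPKM in WT and at 98.3, 107 and 104 FPKM in Cdk1 Liv-/-, overlapping (0.13, limma, adjusted p = 0.18). Adgre1, which encodes F4/80, overlapped too, at 12.7, 13.2 and 15.3 FPKM against 13.2, 20.4 and 13.7 FPKM (0.17, limma, adjusted p = 0.50), while the scavenger receptor Marco rose by 0.69, which did not pass in a fit of all 12 libraries (limma, adjusted p = 0.21). Of 26 Kupffer cell and macrophage genes, 2 were called higher and none lower (3 higher and 1 lower without Cdk1 Liv-/- replicate 3). With a median of 0.30, 10 rose (38.0% of all genes did) and 1 fell, and after scaling 6 rose and 3 fell with a median of 0.07. Cd68 was at 16.1, 15.9 and 16.6 FPKM against 21.3, 42.5 and 20.3 FPKM, with replicate 2 above the others (0.69, limma, adjusted p = 0.11), and passed without replicate 2 (0.35, adjusted p = 0.013) or replicate 3 (0.87, adjusted p = 0.093). After scaling the values of Clec4f (-0.11) and Adgre1 (-0.06) turned below 0.

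Stellate cell markers were near the background as well, with 2 of 26 called higher, none lower (1 without Cdk1 Liv-/- replicate 3), 9 risen and 4 fallen, and 6 risen and 5 fallen after scaling. Des, desmin, rose by 0.66, which did not pass in a fit of all 12 libraries (limma, adjusted p = 0.21). Acta2, the smooth muscle actin of activated stellate cells, was at 8.56, 11.1 and 18.4 FPKM in WT and at 21.8, 19.8 and 11.6 FPKM in Cdk1 Liv-/- (0.49, limma, adjusted p = 0.31). Lrat, which stores retinol, and Reln had log2 fold changes of 0.26 and 0.14 that did not pass (limma, adjusted p = 0.16 and 0.68), and that of each passed without Cdk1 Liv-/- replicate 2 (0.40 and 0.43, adjusted p = 0.024 and 0.031). Endothelial genes had a median of 0.06 (-0.13 after scaling), with 2 of 39 called higher and none lower. The higher calls were 1 without WT replicate 1 or after scaling, and without Cdk1 Liv-/- replicate 2 none was higher and 1 lower. Stab2, Pecam1 and Lyve1 overlapped between genotypes. Lyve1, a hyaluronan receptor of sinusoidal and lymphatic endothelium, was high in replicate 2 (17.05 FPKM, against 4.43 and 5.81 FPKM) and without it passed as lower (-1.004, limma, adjusted p = 0.051). B cell genes were lower, with 8 of 24 fallen, 2 risen and a median of -0.39, none of them called (1 called lower without WT replicate 2, or without Cdk1 Liv-/- replicate 2 or 3). Of 30 erythroid genes 24 did not pass, and Alas2, which starts heme synthesis in red cells, fell by 0.55, which did not pass in a fit of all 12 libraries (limma, adjusted p = 0.12).

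**Figure D4:**
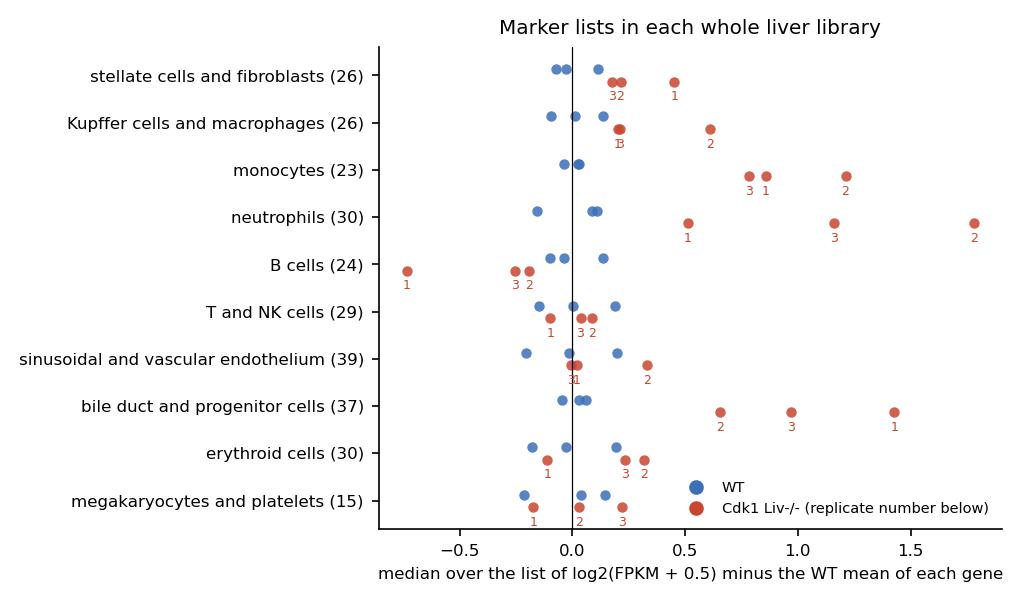
For each marker list, the median over its genes of log2(FPKM + 0.5) minus the WT mean of the gene, in each WT (blue) and Cdk1 Liv-/- (red, replicate number below) whole liver library. All Cdk1 Liv-/- libraries lie above all WT libraries for monocyte, neutrophil and bile duct lists and, by less, for Kupffer and stellate cell lists, and below them for B cells, and mix with WT for endothelial, T and NK, erythroid and platelet lists. Replicate 2 is highest for neutrophils at 1.78 and replicate 1 for bile ducts at 1.43.

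Genes of bile ducts and progenitor cells had a median of 1.04, with 18 of 37 called higher and none lower (17 without Cdk1 Liv-/- replicate 3, 15 after scaling). Sox9, a transcription factor of ductal and progenitor cells, was at 1.2, 1.21 and 0.95 FPKM in WT and at 4.42, 4.12 and 3.18 FPKM in Cdk1 Liv-/- (1.44 ± 0.14, limma, adjusted p = 0.0022). Tnfrsf12a, the receptor of TWEAK, which stimulates progenitor cells, was at 5.32, 5.68 and 8.22 FPKM against 46.3, 79.5 and 58.3 FPKM (3.15 ± 0.24, limma, adjusted p = 0.0011). Krt19, a keratin of bile ducts that mature hepatocytes lack, overlapped at 1.47, 1.89 and 0.99 FPKM against 10.04, 1.66 and 3.71 FPKM, with replicates 1 and 3 above WT (1.26, limma, adjusted p = 0.14, and 1.80 with 0.042 without replicate 2). Sprr1a, a protein of the cornified envelope on this list, rose by 4.57, from at most 0.54 FPKM. In isolated hepatocytes, too, 14 genes of this list were called higher, and 1 was called lower. There Sox9 rose by 1.38, Tnfrsf12a by 2.11 and Sprr1a by 4.11, while Krt19 did not pass (0.45, limma, adjusted p = 0.15). The list is therefore not one of ductal cells alone.

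Krt8, a keratin that hepatocytes and ducts share, was at 104, 96.4 and 91.5 FPKM in WT and at 353, 387 and 346 FPKM in Cdk1 Liv-/- (1.89 ± 0.07, limma, adjusted p = 0.00017). Of 48 cytoskeleton and junction genes, 18 were called higher and none lower with a median of 0.79, and 39 rose. Tubb2b, a beta-tubulin, rose by 2.54 from at most 0.43 FPKM, and S100a6, a calcium-binding protein, by 2.51. Afp, the fetal counterpart of albumin, was at 110, 82.3 and 74.5 FPKM in WT and at 288, 628 and 759 FPKM in Cdk1 Liv-/- (2.55 ± 0.38, limma, adjusted p = 0.0070). The imprinted fetal genes did not follow it: Igf2 was at 390, 265 and 352 FPKM against 317, 327 and 967 FPKM, high in replicate 3 alone (0.49, limma, adjusted p = 0.44), and H19 had a log2 fold change of 0.24 (limma, adjusted p = 0.52). Of 22 fetal and neonatal genes 6 were called higher and 1 lower.

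Enzymes of nitrogen metabolism fell in whole liver. Cps1, which starts the urea cycle, was at 708, 555 and 630 FPKM in WT and at 305, 325 and 346 FPKM in Cdk1 Liv-/- (-0.95 ± 0.11, limma, adjusted p = 0.0032). Ass1, which makes argininosuccinate, was at 1538, 1087 and 1285 FPKM against 650, 720 and 811 FPKM (-0.83 ± 0.15, limma, adjusted p = 0.012). The groups were apart for both genes. Gls2, the liver glutaminase that feeds ammonia to the cycle, fell by 1.45.

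Of 64 genes of the urea cycle and amino acid catabolism, 42 fell (7.53% of all genes did), 3 rose and 19 did not pass, and the median was -0.48. Of these, 9 were called lower and 1 higher. The lower calls ranged from 6 without WT replicate 1 to 15 without WT replicate 2, with 7 without WT replicate 3 or Cdk1 Liv-/- replicate 3, and were 21 after scaling. Nuclear genes of oxidative phosphorylation fell together by small amounts: 55 of 76 fell, none rose and none was called, with a median of -0.26. Atp5b, a subunit of ATP synthase, was at 1058, 1053 and 1030 FPKM in WT and at 769, 802 and 812 FPKM in Cdk1 Liv-/- (-0.40 ± 0.06, limma, adjusted p = 0.0072), Ndufa9 of complex I fell by 0.35 and Uqcrc2 of complex III by 0.28, while Cox4i1 of complex IV had -0.08 (limma, adjusted p = 0.31) and passed after scaling (-0.32, adjusted p = 0.014). Scaling lowered such values further, to a list median of -0.50.

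A sulfotransferase and a nucleoside phosphorylase fell steeply. Sult2a1, which sulfates bile acids and steroids, was at 1059, 1129 and 905 FPKM against 191, 97.5 and 122 FPKM (-2.96 ± 0.25, limma, adjusted p = 0.0015). Upp2, a uridine phosphorylase, was at 116, 97.7 and 119 FPKM against 12.5, 9.03 and 10.3 FPKM (-3.33 ± 0.14, limma, adjusted p = 0.00018). No library of 1 genotype reached the levels of the other for either gene.

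Cytochrome P450s went both ways, with 8 of 57 called higher and 11 lower; the higher calls became 4 without WT replicate 1, 6 without Cdk1 Liv-/- replicate 3 and 2 after scaling, and the lower calls 7 without WT replicate 2, WT replicate 3 or Cdk1 Liv-/- replicate 2, 12 without replicate 1 and 14 after scaling. Cyp2b10, a target of the receptor CAR, fell by 1.97 and Cyp2f2, which marks periportal hepatocytes, by 1.84. Cyp2e1, a pericentral enzyme of ethanol oxidation, was at 2241, 2649 and 1774 FPKM in WT and at 2068, 363 and 1618 FPKM in Cdk1 Liv-/- (-1.04, limma, adjusted p = 0.27). Replicate 2 was far below the WT libraries, replicate 3 slightly below them and replicate 1 within their range. Gstm3, a glutathione transferase, rose by 2.41. Among carriers of bile acids, Slc10a1, which takes them up from blood, fell by 0.77, while Abcb11, the export pump, overlapped with a log2 fold change of -0.002 (limma, adjusted p = 1.00).

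Genes of cholesterol synthesis rose in part. Sqle, squalene epoxidase, was at 1.40, 1.01 and 0.97 FPKM in WT and at 6.21, 18.4 and 13.2 FPKM in Cdk1 Liv-/- (2.89 ± 0.38, limma, adjusted p = 0.0050). All 3 Cdk1 Liv-/- libraries lay above WT. Of 34 genes of this list 9 were called higher and none lower, also without Cdk1 Liv-/- replicate 3.

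Scd1, a fatty acid desaturase, rose by 1.58 and Ghr, the growth hormone receptor, fell by 0.80. Cpt1a, which admits fatty acids to mitochondria, was 0.01 higher (limma, adjusted p = 0.91). Of 37 targets of NRF2 and metallothioneins, 9 were called higher and none lower (11 without Cdk1 Liv-/- replicate 3), and 26 rose.

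The same genes were compared in isolated hepatocytes, to ask where the genotype changed whole liver in another way. The difference of both log2 fold changes was above 0 for 1303 genes (7.49%) and below 0 for 409 genes (2.35%) at an adjusted p of at most 0.1, but these counts were unstable: leaving out 1 library gave 43 to 2232 and 35 to 487 genes, both lowest without WT whole liver replicate 1. Scaling turned the balance, to 412 above and 961 below with whole liver size factors. With size factors in both kinds of sample, chosen after seeing the data, 445 were above and 516 below. Of genes called higher in whole liver, 697 of 798 also had a log2 fold change above 0 in isolated hepatocytes, and of those called lower, 155 of 174 had one below 0. As background, the median log2 fold change of all genes in isolated hepatocytes was 0.05, so more genes lay above 0 than below it. The shares of all genes above and below 0 were not counted.

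The urea cycle differed between both kinds of sample. Cps1 had a log2 fold change of 0.66 in isolated hepatocytes against -0.95 in whole liver, a difference of -1.61 ± 0.20 (limma, adjusted p = 0.010), with 669 FPKM ± 82.2 (SD, n = 3) in WT and 1067 ± 188 in Cdk1 Liv-/- hepatocytes. The difference of Ass1 (-1.30) passed as well (limma, adjusted p = 0.031), and both passed in each of the 12 fits with 1 library left out. Upp2 did so too, with a log2 fold change of 0.03 in isolated hepatocytes (limma, adjusted p = 0.97), at 96.4 FPKM ± 19.2 in WT and 102 ± 36.0 in Cdk1 Liv-/- (SD, n = 3). Of the 64 genes of the urea cycle and amino acid list, 23 were below their change in hepatocytes at an adjusted p of at most 0.1 (2.35% of all genes were) and none above. Acute phase genes were called in both kinds of sample, with smaller changes in whole liver for Saa1 (by 1.80, passing in 10 of the 12 fits with 1 library left out) and Saa2 (by 2.01, in all 12).

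Other genes differed in the opposite direction. Inhbb, which encodes a chain of activin, had a log2 fold change of 0.28 in whole liver and -2.56 in isolated hepatocytes, a difference of 2.85 ± 0.33 (limma, adjusted p = 0.0070). Il1b, made by macrophages and neutrophils, was at 1.07, 0.93 and 1.70 FPKM in WT and at 3.85, 8 and 2.41 FPKM in Cdk1 Liv-/- whole liver (1.48, limma, adjusted p = 0.038, up to 0.11 without WT replicate 1 or 2), against -2.01 in hepatocytes, a difference of 3.49 ± 0.44 (limma, adjusted p = 0.010). For Col1a2 and Col3a1 the differences were 2.33 and 2.10 (limma, adjusted p = 0.079 and 0.087), which passed in 3 and 2 of the 12 fits with 1 library left out and not with size factors in both kinds of sample (adjusted p = 0.10 and 0.12), a setting chosen after seeing the data. Those of Col1a1 (1.86) and Col5a3 (0.02) did not pass (limma, adjusted p = 0.19 and 0.98). Beside these values, some marker lists of other cells were lower in isolated hepatocytes of Cdk1 Liv-/- than of WT mice. Their medians were -1.45 for endothelium, -1.06 for Kupffer cells and -0.82 for stellate cells. Medians were -0.10 for neutrophils, 0.10 for monocytes and 0.72 for bile ducts and progenitor cells, beside 0.05 for all genes. For 27 of 39 endothelial genes the difference was above 0 at an adjusted p of at most 0.1 (7.49% of all genes). The part of these lower marker levels in the differences was not tested.

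**Figure D5:**
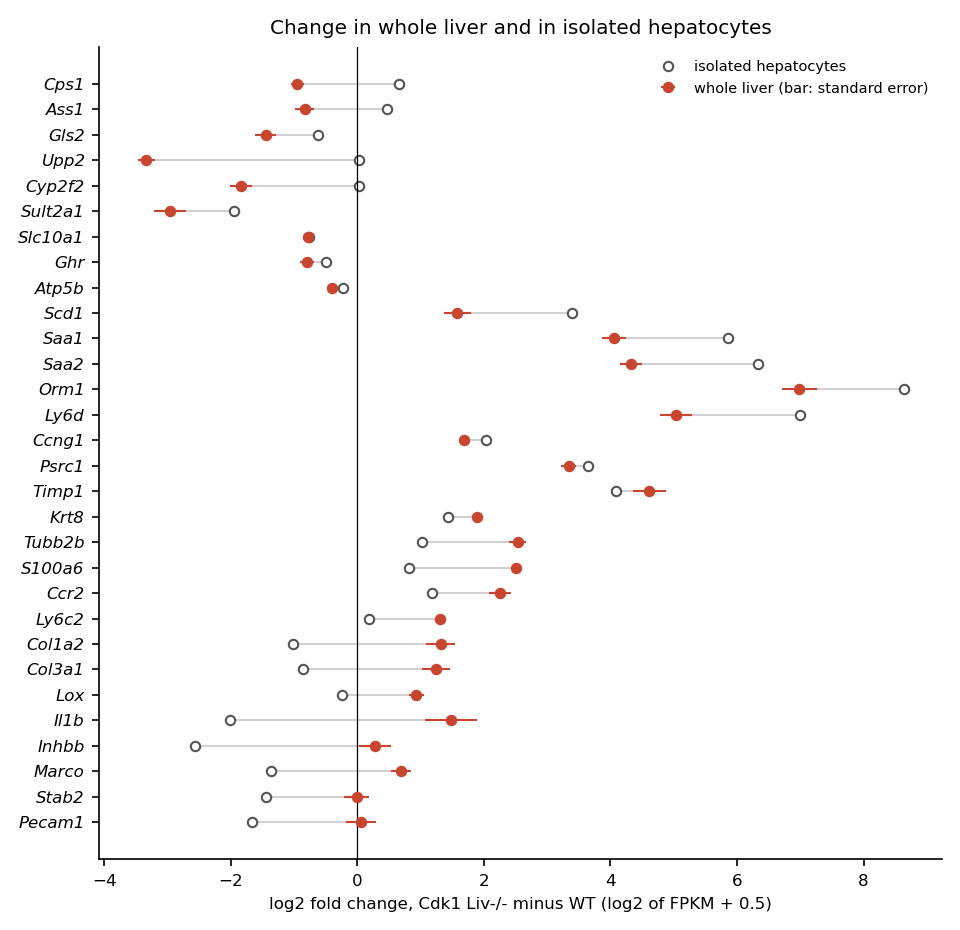
Log2 fold change of named genes in whole liver (red, with standard error) and in isolated hepatocytes (open). Enzymes of the urea cycle and Upp2 lie to the left in whole liver, with Cps1 at -0.95 against 0.66, while Inhbb, Marco, Stab2 and Pecam1 lie to the left in isolated hepatocytes.

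A small set of genes was listed at 0 in 1 genotype. Of genes with a mean of at least 1 FPKM in WT, 19 were listed at 0 in all 3 Cdk1 Liv-/- libraries, and of those with at least 1 FPKM in Cdk1 Liv-/-, 15 were listed at 0 in all WT libraries. Of these, 10 of the 19 and 4 of the 15 were called, and many of the others are short RNAs with reads in 1 or 2 libraries of the other genotype, so the counts are not counts of genes present in 1 genotype alone. The genetic background of the mice is not given in the sources used here. Trim12a (chr7:104299894-104315466), of the antiviral TRIM family, was at 6.39, 6.04 and 6.17 FPKM in WT. Gm11007 (chr2:175643978-175653860) was at 5.14, 5.60 and 5.12 FPKM with values identical to those of Gm2007, and Gm14305 (chr2:176708328-176721813), chosen after its values were seen, at 3.02, 3.92 and 1.99 FPKM. The latter pair lies within a cluster of similar genes on chromosome 2. Gm12070, a pseudogene on chromosome 11, was at 6.95, 4.41 and 7.70 FPKM. In isolated hepatocytes of Cdk1 Liv-/- mice, Gm12070, Gm11007 and Trim12a were not at 0, with means of 0.99, 0.37 and 0.013 FPKM. Steep falls were also seen in genes with near copies, whose reads may have been divided: Gm13841, a pseudogene, fell by 6.58, Eno1b by 4.72 and the amylase gene Amy2a1 by 5.10, from 38.3, 32.2 and 8.13 FPKM to at most 0.48 FPKM.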

How the data were processed

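Polyadenylated RNA of mouse whole liver and of isolated hepatocytes was sequenced as stranded single-end reads of 75 bp. Per the submitters' processing notes, the authors aligned reads with STAR to mm10 and quantified genes with RSEM 1.2.31, and they deposited FPKM to 2 decimals with no normalization between libraries. The annotation release is not given in the sources used here. Counts were not part of the files used, so methods for counts were not run.

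From the FPKM values, log2(FPKM + 0.5) was fitted with limma 3.58.1 in R 4.3.3 (lmFit, eBayes with trend, two-sided) over the 17386 of 47069 genes with a mean of at least 0.1 FPKM over the 12 libraries, on the 6 whole liver libraries for the main comparison and on all 12 for the difference from isolated hepatocytes. limma took the place of the study's two-sample test per gene, which was kept as an alternative. The fits were tested on simulated data. Positions are those of GENCODE M21, in which 46574 genes were found.

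The 46 lists hold 1633 genes, of which 1546 were tested. The comparison and lists were chosen with earlier results of these data known, and no set test was run. Genes named are Cdk1, key members and the 3 largest and 3 smallest called members of each list, the 20 largest and 20 smallest called changes without overlap at a mean of at least 1 FPKM, the 5 largest and 5 smallest differences from isolated hepatocytes, genes the study names, and Xist with 4 Y-linked genes. Not every gene the rule takes is printed, and some are not reported here.

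Depth was estimated on genes with 1 transcript of 300 to 900 bp and at most 0.5 FPKM, of which 67.0% to 70.2% lay on the fitted step in whole liver. The labels do not say whether replicate numbers pair libraries. Deviations of same-numbered libraries correlated at -0.32 to 0.24 over all pairs of groups. Differently numbered libraries were not set beside them, so these values cannot decide on pairing. Alternatives were the pseudocount, filter, scaling, test, replicate block and leaving out each library.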

Additional observations from a re-analysis of the deposited data

Results flagged for a closer look

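The results below were singled out because the change with genotype differed between whole liver and isolated hepatocytes at an adjusted p of at most 0.1 (interaction of genotype and kind of sample, limma, 12 libraries). Each value is the log2 fold change in whole liver minus that in isolated hepatocytes. How many genes pass depended strongly on single libraries, as given below, and among the genes listed Saa2, Il1b, Inhbb, Tubb2b, Upp2, Cps1 and Ass1 passed with any 1 library left out. With size factors in both kinds of sample, chosen after seeing the data, Icam1, Col1a2, Col3a1, Pdgfra, Pdgfrb, Adgre1, Stab2, Pecam1 and S100a6 missed the threshold (limma, adjusted p up to 0.12), and Pecam1, Adgre1 and Pdgfra passed in 1, and Stab2, Col3a1 and Scd1 in 2, of the 12 fits with 1 library left out.

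Above the change in hepatocytes were inflammatory genes (Il1b 3.49, Stfa2 2.80, Cxcl5 1.25, Ly6c2 1.12, Ccr2 1.07, Relb 1.05 and Icam1 0.75). So were genes of matrix and growth factor signalling (Inhbb 2.85, Col1a2 2.33, Col3a1 2.10, Pdgfrb 1.49, Lox 1.17 and Pdgfra 0.97), of macrophages and endothelium (Marco 2.06, Pecam1 1.72, Adgre1 1.57 and Stab2 1.44), and others (Gm16567 3.41, S100a6 1.70, Tubb2b 1.52 and Cdkn2b 0.69). In whole liver the changes of Pecam1 (0.06), Adgre1 (0.17) and Stab2 (-0.01) did not pass. Their log2 fold changes in isolated hepatocytes were -1.66, -1.40 and -1.45. Marco had 0.69 in whole liver and -1.36 in isolated hepatocytes.

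Below the change in hepatocytes were metabolic genes (Nnmt -3.68, Upp2 -3.36, Mup3 -3.18, Cyp17a1 -3.10, Cyp2f2 -1.86, Scd1 -1.81, Cps1 -1.61, Ass1 -1.30 and Gls2 -0.83), acute phase and secreted proteins (Wfdc21 -2.58, Saa2 -2.01, Ly6d -1.96, Saa1 -1.80, Orm1 -1.65 and C9 -1), and Eda2r (-1.19). Nnmt, Mup3 and Cyp17a1 rose in isolated hepatocytes of Cdk1 Liv-/- mice, to a mean of 67.3, 40.2 and 28.3 FPKM, and reached at most 24.2, 3.16 and 5.36 FPKM in Cdk1 Liv-/- whole liver. Groups of 3 libraries are too small for a test of single outlying libraries.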

How the results depend on the processing

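Leaving out 1 library gave 715 to 928 genes called higher, 161 to 200 called lower, and -0.93 to -0.79 for Cdk1. A pseudocount of 0.1 gave 1370 higher and 280 lower, size factors 523 higher, and the adjusted p alone 6610 higher and 1310 lower. Cdk1 reached a fold change of -1.08 with size factors, and at the adjusted p alone its -0.85 counts as changed. Differences from isolated hepatocytes were the least stable. Without 1 library 43 to 2232 genes were above and 35 to 487 below, with whole liver size factors 412 and 961, and with size factors in both kinds of sample, added after seeing the data, 445 above and 516 below. With a replicate block there were 455 above and 201 below, though whether the numbers pair the libraries is not known. The whole liver counts under the block were 783 and 168, and of the named genes S100a8 and Mup3 no longer passed (limma, adjusted p = 0.11 and 0.15). The cause was not tested. Among 135 genes other than Cdk1 and 16 alternatives, 2073 of 2155 comparisons kept direction and side of the threshold, no call reversed, and 5 genes were not tested at a minimum of 1 FPKM. Small changes of genes near 0.1 FPKM were not detectable at this depth.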
